A study of Xenopus tropicalis with 9 samples.

Results

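The genes described here stood high in mature replicates 2 and 3 of the humerus cartilage of Xenopus tropicalis and low in immature cartilage and in bone. A gene was taken when its lower value in these 2 libraries was at least 4 times the highest immature value plus u, and at least 2 times the highest osteoblast value plus u, where u is 1 ppm of the mean library total (9.52 on the deposited scale). This gave 96 of 10336 genes, 0.929% of the table. Mature replicate 1 had no part in the choice. The values of the other 8 libraries chose the genes, so their high level in mature replicates 2 and 3 is a description and was not tested.

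Transcripts were sequenced from cells isolated by laser capture, in which a laser cuts chosen cells out of a tissue section. The animals were wild-type frogs at stage NF 57, 22 to 24 days after fertilisation at 27 to 28 °C, and none was treated. Immature and mature chondrocytes came from the humerus and osteoblasts from the medial angulosplenial, a bone of the lower jaw, with 3 libraries in each group. Which animal gave which library is not in the labels, so the p-values describe the variation of these libraries, part of which may be technical. Bone and cartilage also differed in body site.

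Chondrocytes build and maintain the matrix of cartilage. As they mature in a limb element they leave the cell cycle, enlarge and change the matrix they secrete, and the matrix around them can mineralise before it is resorbed or replaced by bone. Osteoblasts secrete the bone matrix, and several genes of late cartilage are known to be shared with bone. The table names genes by Ensembl identifier alone, and the reference table used here paired 0 of the 10336 identifiers with a symbol. The known markers of cartilage maturation could therefore not be looked up, the labelled cell types could not be checked against their markers, and the 96 genes are described by their levels.

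Deposited totals were 7594328 to 14055110 per library, the highest in mature replicates 3 and 2. Estimated reads ran from 7160000 in mature replicate 2 to 13100000 in osteoblast replicate 3 and did not follow the totals. Mature replicate 3 had an estimated 8850000. By the same estimate 1 read was worth 1.595 and 1.589 in mature replicates 2 and 3 and 0.732 to 1.169 in the other libraries. Mature replicates 2 and 3 had a value of 0 for 2014 and 1430 genes, where mature replicate 1 had 958 such genes and the immature group 759 to 1026. The osteoblast libraries had 2231, 1007 and 1132. Mature replicate 1 also stood apart from its group, since 75.0% of 9080 tested genes lay nearer in it to the immature mean than to the mean of mature replicates 2 and 3. The part that these differences between libraries have in the levels below was not tested. Fewer cells of a kind and less RNA per cell cannot be told apart in captured tissue.

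Levels are given in ppm, a gene's share of its library's deposited total times 1000000. Together the 96 genes made up 37290 ppm of mature replicate 2 (3.73%) and 33480 ppm of mature replicate 3 (3.35%). In the immature libraries they summed to 2204, 2896 and 3061 ppm and in the osteoblast libraries to 2528, 3279 and 2391 ppm. Mature replicate 1 held 2658 ppm, within the range of the immature libraries. The sums of mature replicates 2 and 3 were 12.2 and 10.9 times that of the highest immature library, so the genes were high in 2 of the 3 libraries labelled mature, and they are not called genes of mature cartilage here.

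**Figure D1:**
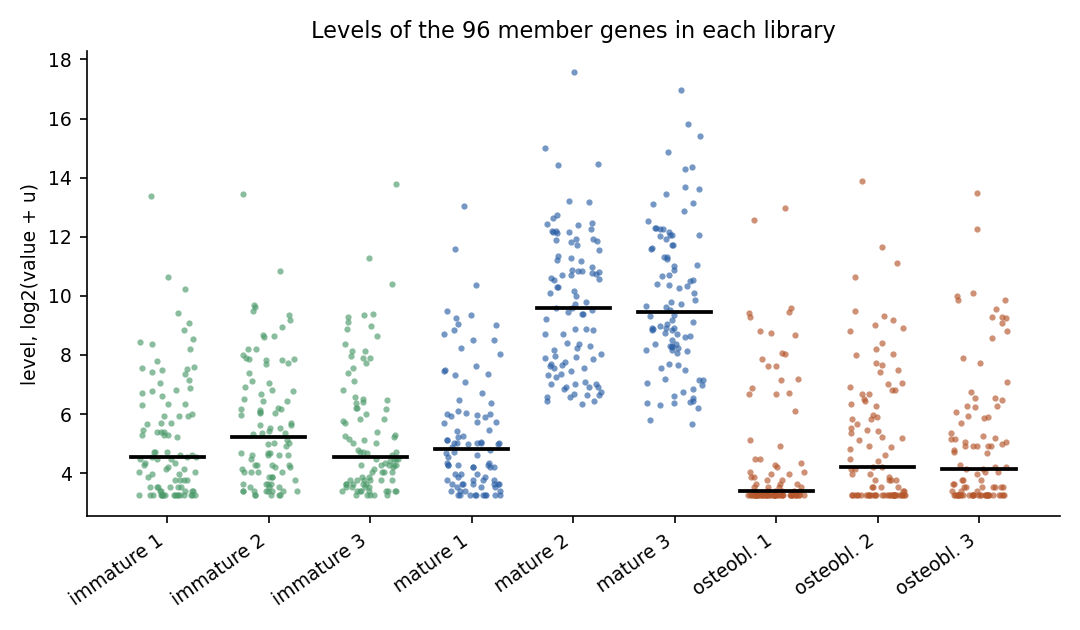
Levels of the 96 genes in each of the 9 libraries, as log2(value + u) with u = 9.52; each point is 1 gene and each black line the median of the library. Mature replicates 2 and 3, which chose the genes, stand above all others, and mature replicate 1 lies with the immature libraries.

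The median member stood at 66.5 ppm in mature replicate 2 and at 48.7 ppm in replicate 3. It stood at 1.58, 3.56 and 1.69 ppm in the immature libraries, at 2.5 ppm in mature replicate 1 and at 0.127, 1.02 and 0.735 ppm in the osteoblast libraries. The median of all tested genes was 7.45 and 6.12 ppm in mature replicates 2 and 3 and 9.46 ppm or more in the other libraries, so the members lay above the typical gene in these 2 libraries and below it in the rest. Averaged over mature replicates 2 and 3, levels ran from 4.83 to 13110 ppm, with 12 genes under 10 ppm, 33 from 10 to 50, 22 from 50 to 200, 23 from 200 to 1000 and 6 at 1000 or more. The 6 most abundant genes made up 68.5% of the summed level in mature replicate 2 and 63.8% in mature replicate 3.

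The most abundant member took 17130 ppm of mature replicate 2 and 9095 ppm of mature replicate 3 and was ranked 9 among all genes by its mean in these libraries. It was not a gene of mature cartilage alone, standing at 1210, 1426 and 1688 ppm in the immature libraries, 1105 ppm in mature replicate 1 and 1007, 1708 and 1056 ppm in the osteoblast libraries. Mature replicate 1 lay below all 3 immature libraries for this gene. Without it the members still summed to 20150 and 24380 ppm in mature replicates 2 and 3, against 994 to 1571 ppm in the other 7 libraries.

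The distance of a member from the rest of the series was measured as a margin, the log2 ratio of its lower value in mature replicates 2 and 3 to its highest immature or osteoblast value, with u added to both. Margins ran from 1.08 to 7.99 with a median of 2.83. The largest belonged to ENSXETG00000017408, with 596 and 297 ppm in mature replicates 2 and 3. It stood at 0, 0.127 and 0.846 ppm in the immature libraries, at 0.132 ppm in mature replicate 1 and was listed at 0 in all 3 osteoblast libraries. A count of 0 in those libraries allows 0.229 to 0.397 ppm (3 reads), so this gene was near the limit of detection everywhere except in 2 libraries.

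ENSXETG00000000523 had the next largest margin, 5.86, with 297 and 170 ppm in mature replicates 2 and 3. Its immature values were 1.47, 4.07 and 1.21 ppm, its value in mature replicate 1 was 1.19 ppm and its osteoblast values were 1.14, 0.679 and 0.367 ppm. Mature replicate 1 thus lay just below the lowest immature library. On the deposited scale that the rule uses, it equalled the highest osteoblast library, with a log2(value + u) of 4.211 in both and 4.287 in immature replicate 3. Just inside the bound of 4 on immature cartilage the smallest ratio was 4.093, and the largest just outside it was 3.999. For the bound of 2 on bone these ratios were 2.06 and 1.953. In all, 166 genes met the immature bound, and 70 of them were left out because of their level in bone.

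**Figure D2:**
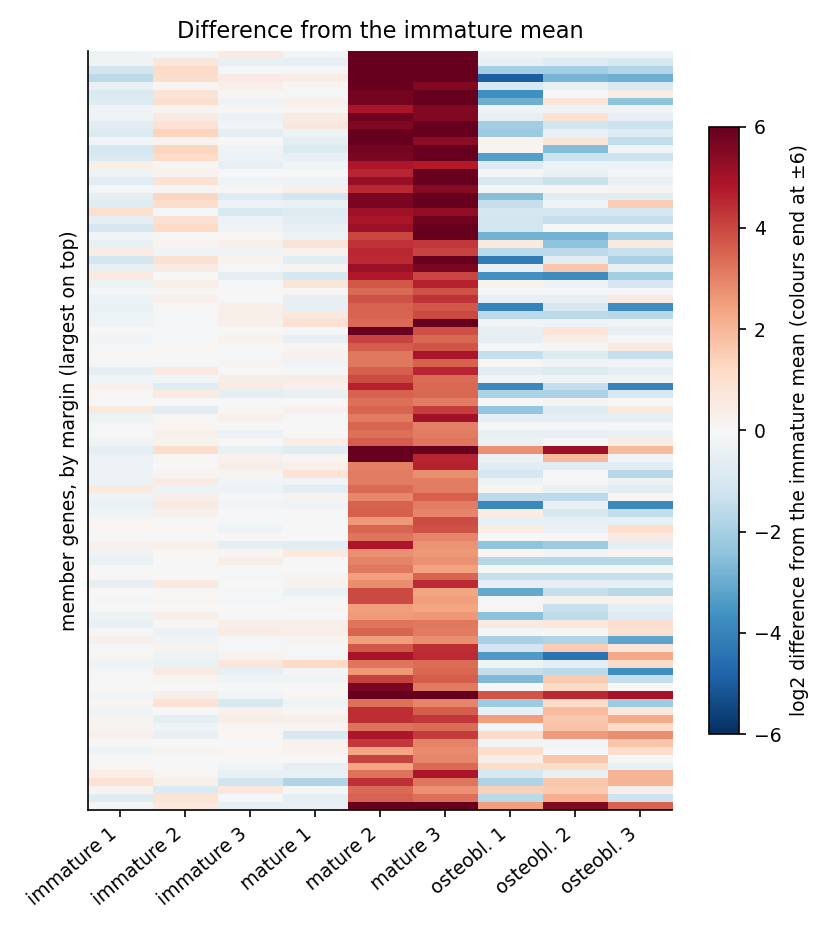
Log2 difference of each library from the mean of the 3 immature libraries, on log2(value + u), for the 96 genes, ordered by margin with the largest on top. Mature replicates 2 and 3 are high throughout by the choice of the genes, mature replicate 1 stays close to the immature libraries, and a few genes near the bottom are also high in osteoblasts.

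Mature replicate 1, the mature library that the choice did not use, was examined to see whether these genes were high in another capture of mature cartilage. None of the 96 genes met the bounds of the rule there, and none of the 10336 genes did (0.0%). No member reached 2 times its highest immature value plus u, and only 4 of 9080 tested genes (0.0441%) did. Both counts of 0 are thus near the share over all genes and are not particular to the members. With u added to both, mature replicate 1 was between 0.157 and 1.54 times the highest immature value. It was at most 0.253 times the lower of mature replicates 2 and 3.

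The log2 difference of mature replicate 1 from the immature mean had a median of 0.00 over the 96 genes and ran from -1.79 to 1.17. Between the 5th and the 95th percentile it ran from -0.79 to 0.69 for the members and from -0.80 to 0.80 for all tested genes. By comparison, mature replicates 2 and 3 lay between 2.43 and 8.82 above the immature mean, with a median of 3.96. In mature replicate 1, 4 of the 96 members were more than 1 above or below the immature mean, which was not counted over all tested genes.

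Of the 96 genes, 79 reached u in at least 3 libraries and were tested with all other such genes. The other 17 reached it in mature replicates 2 and 3 alone. Among the 79, mature replicate 1 was above all 3 immature libraries for 13 genes and below all 3 for 16, where the background over tested genes was 24.4% and 22.4%. In a limma fit with mature replicate 1 as a group of its own, 0 of the 79 members differed from immature chondrocytes at an adjusted p under 0.05. The same fit called 0 of 9080 genes (0.0% in each direction), and at an unadjusted p under 0.05 it held 0 members and 4 genes in all (0.022% in each direction), where 454 would be there by chance if the spread in the model matched these libraries. The spread it takes from all groups was thus wider than that among these 4 libraries. This test rests on 1 library, which is assumed to vary like the other groups.

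The precision of that fit was low, and the 95% interval of a member's difference had a median width of ± 2.03 on the log2 scale, from ± 1.08 to ± 4.05. For all 79 members the upper end of the interval lay below the difference seen in mature replicates 2 and 3, which had a median of 4.07 for these genes. The members were chosen by their values in mature replicates 2 and 3 and in the immature and osteoblast libraries. That larger difference was thus set by the rule. It was given no interval of its own, and the comparison was not made over all tested genes. The count of 79 is therefore a description and was not tested. Smaller increases in mature replicate 1 were not detectable at this precision.

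**Figure D3:**
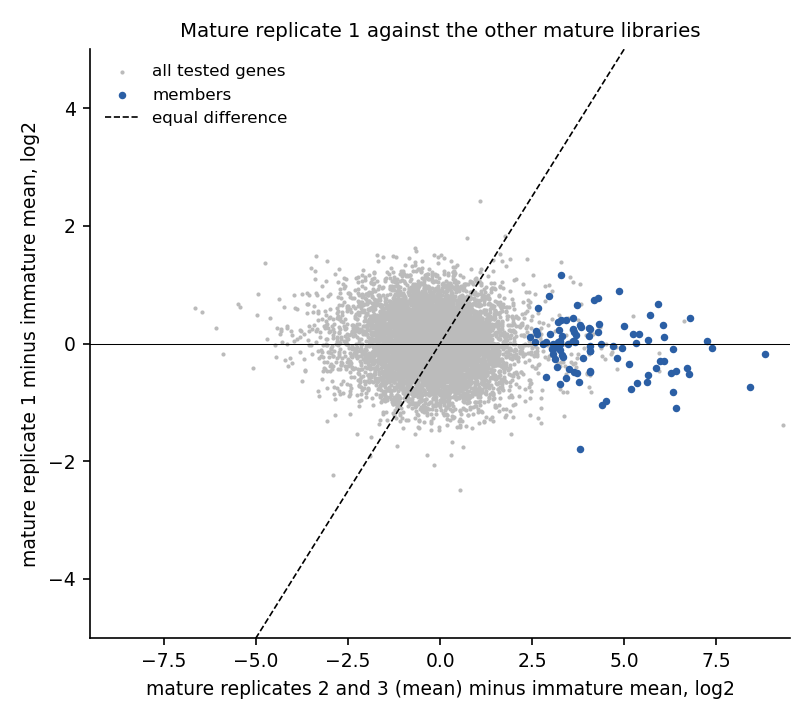
Log2 difference from the immature mean in mature replicate 1 (vertical) against the mean of mature replicates 2 and 3 (horizontal), with 9080 tested genes in grey and the 96 members in blue; the dashed line marks equal differences. The members lie to the right by choice, and vertically within -1.79 to 1.17, far below the dashed line.

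When the 3 mature libraries were taken as 1 group, the members had a median log2 difference of 2.68 from immature chondrocytes, where all tested genes had -0.09. Limma called 0 of the 79 (background 0.0%), and at an unadjusted p under 0.05, 70 of them were higher, where 2.53% of tested genes were. Without mature replicate 1, 70 of the 79 were called higher, where 152 of the 9080 tested genes were. Against osteoblasts 45 of the 79 were called higher (background 4.52%) and 0 lower (7.21%). Without mature replicate 1, 75 were higher, where 374 of the 9080 tested genes were. Without mature replicate 2 or 3 the count of higher members was 13 or 16, where that of all tested genes was 226 or 254. Without an osteoblast library it was 23 to 28 for the members and 400 to 506 for all tested genes. Both contrasts chose the genes, so nothing is read from these counts.

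Outside mature replicates 2 and 3 the members had different base levels. In immature cartilage 51 reached u in all 3 libraries, 19 in 1 or 2 libraries and 26 in none. Of the 51 genes present throughout immature cartilage, 49 also reached u in mature replicate 1, and of the 26 that reached u in no immature library, 2 did. These 26 were at most 1.15 ppm in an immature library, and 4 of them were listed at 0 in all 3. In osteoblasts 23 members reached u in all 3 libraries, 36 in 1 or 2 and 37 in none. The 23 genes had a median of 283 ppm over mature replicates 2 and 3 and the 37 genes one of 21.1 ppm, an order set by the rule, since a gene detected in bone had to be the more abundant in these libraries to be chosen.

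The 19 members that reached u in no immature and no osteoblast library were the nearest to an on-off pattern. They stood between 2.92 and 596 ppm in mature replicates 2 and 3, with a median of 9.05 ppm, so most were rare transcripts even there. In mature replicate 1 their highest level was 1.84 ppm, 2 reached u and 5 were listed at 0. Of the 19, 1 was listed at 0 in all 6 immature and osteoblast libraries, and 3 were at 0 in all 3 immature libraries and in mature replicate 1. At the depth of these libraries a value of 0 allows up to 0.280 to 0.371 ppm in the immature libraries and mature replicate 1.

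A further 21 members were present in every immature and every osteoblast library. Their median over mature replicates 2 and 3 was also 283 ppm, and they included the most abundant member. Their median margin was 2.20, against 3.33 for the 8 genes present in every immature and no osteoblast library. The latter reached at most 8.02 ppm in an immature and 1.14 ppm in an osteoblast library. With its looser bound for bone, the rule allows smaller margins to genes that stand higher in bone than in immature cartilage. The difference in margin is thus in part set by the rule and was not tested.

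Immature chondrocytes and osteoblasts were compared to see how the members stood in the tissues where they were low. The rule bounds each against mature cartilage, with a looser bound for bone, but does not compare them with each other. As the bounds differ, the direction of the difference is not free of the rule. The median log2 difference of osteoblasts from immature chondrocytes was -0.40 over the 96 genes, and the mean was lower in osteoblasts for 67 genes, higher for 28 and equal for 1. All tested genes had a median of -0.23 for the same difference, and the share of them with a lower mean in osteoblasts was not counted. Among the 79 tested members every osteoblast library lay below every immature library for 24 genes and above for 6, where the background was 19.7% and 14.7%.

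Limma called 1 of the 79 higher and 0 lower in immature chondrocytes than in osteoblasts, with backgrounds of 5.51% and 7.79%. At an unadjusted p under 0.05 there were 10 higher (15.3% of tested genes) and 3 lower (12.2%). This fit takes its spread from all 3 groups, and in the mature group the members lay far lower in replicate 1 than in replicates 2 and 3. Their intervals are widened by this, so fewer calls than in the background cannot be read as a result about the members. The called gene had 36.7, 28.8 and 29.2 ppm in immature chondrocytes, 7.61, 7.69 and 1.93 ppm in osteoblasts and 38.7 ppm in mature replicate 1, against 133 and 132 ppm in mature replicates 2 and 3. Its log2 difference was 2.30 (SE 0.68, limma adjusted p = 0.0399). Without any 1 of the immature libraries, mature replicate 2 or osteoblast replicate 3, no member was called. Over all tested genes, 174 to 186 were higher and 448 to 460 lower without an immature library. There were 488 higher and 679 lower without mature replicate 2, and 620 and 704 without osteoblast replicate 3. Without osteoblast replicate 2 there were 4 calls, all higher, and without mature replicate 1 there were 13, of which 8 were higher and 5 lower. Of the 9080 tested genes, 543 were higher and 717 lower without osteoblast replicate 2. Without mature replicate 1, 649 were higher and 747 lower. Whether the members differ from this background was not tested.

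The 2 genes that leaned furthest towards bone, picked for the lowest difference of immature chondrocytes from osteoblasts, were low in mature replicate 1. Their order in the other groups follows from the rule and from that pick, so it is a description and its p-values support nothing. ENSXETG00000024840 stood at 0.903, 2.04 and 0.967 ppm in the immature libraries, 1.45 ppm in mature replicate 1, 32.7, 49.9 and 56.4 ppm in osteoblasts and 203 and 278 ppm in mature replicates 2 and 3. The immature and osteoblast libraries did not overlap, and their log2 difference was -4.41 (SE 1.40). Its limma adjusted p was 0.0537, and other settings put it on either side of the threshold, between 0.000254 without mature replicate 1 and 0.142 without osteoblast replicate 3. With the title number as a replicate block the limma adjusted p was 0.0393. It was also under the threshold with library weights (0.0293), with equal totals (0.0422), with the smaller pseudocount (0.0491) and without mature replicate 3 (0.0494). Between mature replicate 1 and osteoblasts the log2 difference was -4.36 (SE 0.77). The pick used the osteoblast values, so this difference is a description too.

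ENSXETG00000007038 stood at 3.72, 7.89 and 2.78 ppm in the immature libraries, 3.29 ppm in mature replicate 1, 32.0, 250 and 49.2 ppm in osteoblasts and 410 and 350 ppm in mature replicates 2 and 3. Osteoblast replicate 2 was far above the other osteoblast libraries and set the margin of this gene, the smallest of all at 1.08. Its log2 difference between immature chondrocytes and osteoblasts was -3.88 (SE 1.44, limma adjusted p = 0.0954). Without osteoblast replicate 2 it was -3.03 with a limma adjusted p of 0.273, and without mature replicate 1 the adjusted p was 0.00295. In mature replicate 1 it was lower than in osteoblasts (log2 difference -4.30, SE 0.99), which is a description for the same reason.

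Mature replicate 1 against osteoblasts gave 5 calls among the 79 members, 2 higher (background 2.16%) and 3 lower (3.72%) in mature replicate 1. Both genes just named, whose pick used the osteoblast values, were among the lower ones. The 2 higher ones followed the most abundant member in level. The first of them stood at 68.6 ppm in mature replicate 1, inside the immature range of 13.9 to 104 ppm, and at 0.380, 5.32 and 3.86 ppm in osteoblasts. The other stood at 399 ppm in mature replicate 1, above the immature values of 178, 232 and 301 ppm, and at 78.2, 70.7 and 55.8 ppm in osteoblasts. Without any 1 of the other immature or mature libraries fewer members were called, and fewer of all tested genes as well. The drop is thus not particular to the members.

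**Figure D4:**
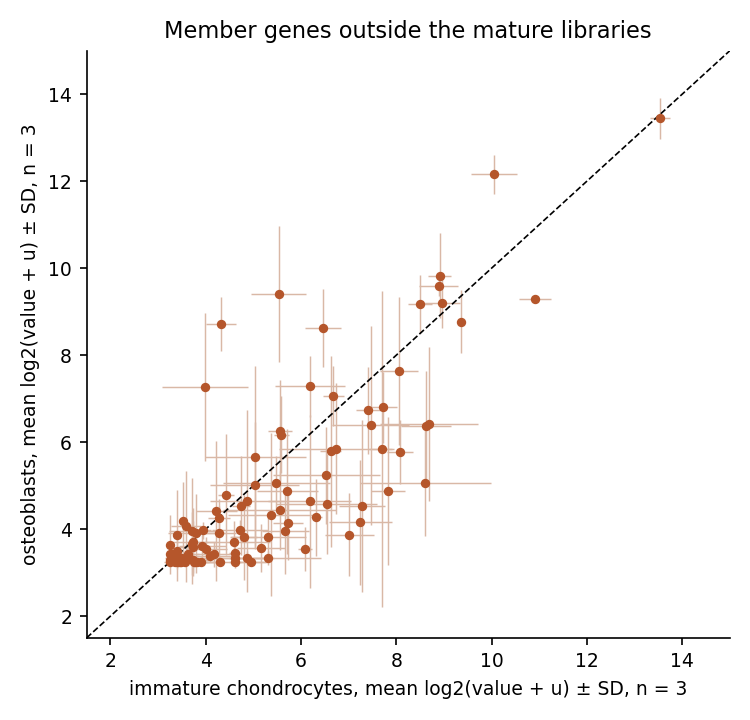
Mean level of each of the 96 genes in osteoblasts (vertical) against immature chondrocytes (horizontal), as log2(value + u) with bars of 1 SD over 3 libraries; the dashed line marks equal levels. More genes lie below the line (67) than above it (28), which was not counted over all tested genes. The vertical bars are the longer ones for many genes.

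The members also differed between the 2 libraries that chose them. Of the 96, 56 took a larger share of mature replicate 2 and 40 a larger share of mature replicate 3, and the ratio of replicate 3 to replicate 2 ran from 0.128 to 6.69. It was 2 or more for 13 genes (13.5%), and for 15 genes (15.6%) replicate 2 was at least 2 times replicate 3. Among 4984 tested genes at 4u or more in both libraries, the lowest level the rule allows, these shares were 6.56% and 17.5%.

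Within immature cartilage, immature replicate 2 was at least 2-fold above the mean of immature replicates 1 and 3 for 17 of the 79 tested members, 21.5%, where the background was 3.52%. It was as far below for 3 members (background 1.35%). The background was not matched for level, and the median member lay below the median tested gene in the immature libraries. Of these 17 genes, 15 (88.2%) had the order replicate 2, then 3, then 1, where 59.4% of the 320 tested genes chosen in the same way did. The second most abundant member, at 68.6 ppm in mature replicate 1, was one of them, with 13.9, 104 and 65.1 ppm in the immature libraries and 2880 and 4074 ppm in mature replicates 2 and 3.

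Together the 17 genes summed to 77.1, 417 and 194 ppm in the immature libraries and to 178 ppm in mature replicate 1. They summed to 7860 and 14470 ppm in mature replicates 2 and 3 and to 31.7, 172 and 68.1 ppm in osteoblasts. For 13 of the 17 the share was larger in mature replicate 3 than in replicate 2, with a median ratio of 1.48. Among the other 79 members this held for 27, with a median ratio of 0.753. It was not counted among the 320 tested genes chosen in the same way. Mature replicate 1 was inside the immature range, which the choice of these genes widens, for 14 of the 17 (82.4%, against 78.8% of the 320 genes) and below it for 3. These genes were picked after their values were seen, and no test was made of them.

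Across the 79 tested members the difference between mature replicates 3 and 2 correlated at r = 0.39 with the difference between immature replicate 2 and the other immature libraries. For the 37 members at 2u or more in all immature libraries r was 0.51, and across 9080 tested genes it was 0.00. These are descriptions across genes of the same 5 libraries, and genes are not independent replicates. Libraries of immature replicate 2 and osteoblast replicate 2 share a number in their titles, as do immature replicate 3 and mature replicate 3. The labels do not say what that number stands for.

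**Figure D5:**
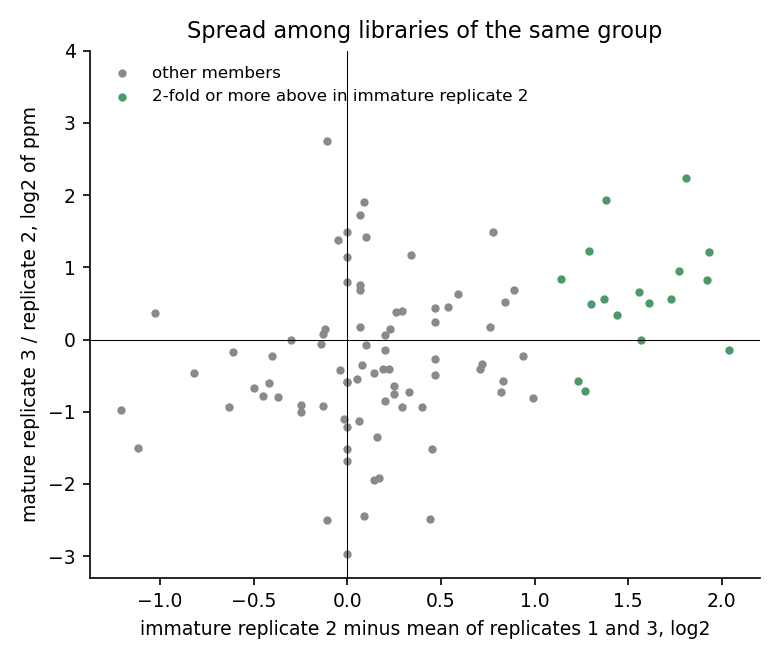
Log2 ratio of the ppm levels in mature replicate 3 and replicate 2 (vertical) against the log2 difference of immature replicate 2 from the mean of immature replicates 1 and 3 (horizontal), for the 96 genes. The 17 genes at 2-fold or more in immature replicate 2 are in green, and 13 of them lie above 0 on the vertical axis. That share was not counted over all tested genes chosen in the same way.

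Over the immature libraries the median SD of the 79 tested members was 0.40 on the log2 scale, against 0.34 for all tested genes. Over the osteoblast libraries it was 0.84 for these members and 0.97 for all tested genes. This order was not kept among genes at 2u or more in all immature libraries. There the median SD over osteoblasts was 0.98 for 37 members and 0.94 for 6475 genes. Many members were at or near 0 in bone, which limits how far they can vary there. Of the 96, 47, 32 and 29 were listed at 0 in the 3 osteoblast libraries, where 2231, 1007 and 1132 of the 10336 genes were.

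The number of genes in the group depended on how libraries were scaled. When every library was brought to the same total, 64 genes met the rule, all of them among the 96, because the deposited totals of mature replicates 2 and 3 were above the others. That scaling shifted the mature against immature contrast as a whole: its median log2 difference went from -0.09 to -0.37 over tested genes and from 2.68 to 2.35 over the members.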

How the data were processed

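The 9 columns of the deposited table held values that the authors had normalized and rounded to whole numbers, and they were treated as a score because the scaling method was not given. The tools listed per the submitters' processing notes are STAR 2.5.3a, Trimmomatic 0.36 and edgeR. Build, annotation, counting and gene filter are not given in the sources used here. Per the labels' protocols, RNA was amplified in a linear round before library preparation, which adds spread to rare transcripts. What 1 read was worth was estimated from skipped and repeated low values and lay between 0.732 and 1.595. Exact reads were not recovered, so no count model was run. The limit for a value of 0 is 3 reads and covers counting error only.

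Values were analysed as log2(value + 9.52), which understates differences of low genes. Genes at 9.52 or more in at least 3 of 9 libraries were tested (9080 genes) in limma 3.58.1 (R 4.3.3) with a variance trend. One model had the 3 labelled groups, and another had mature replicate 1 apart. P-values were adjusted over all tested genes by the Benjamini-Hochberg method, with 0.05 as threshold. The fits were run on simulated data with known changes. There the false share of the calls of immature chondrocytes against osteoblasts was above the threshold. The simulation gave the mature libraries the immature spread and set no general split of mature replicate 1 from replicates 2 and 3. It therefore did not check the fits in the setting of the members. The model takes 1 spread for all groups, so the adjusted p can understate the error against the more variable osteoblasts and overstate it between immature chondrocytes and mature replicate 1. Identifiers named were the 2 members of largest margin and the 2 others with the lowest difference of immature chondrocytes from osteoblasts. The 15 gene lists could not be tested without symbols. The members and lists were chosen with earlier results of these data known. Python 3.11.15, numpy 2.4.6, pandas 2.3.3 and matplotlib 3.10.9 were used.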

Additional observations from a re-analysis of the deposited data

How the results depend on the processing

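Other settings were tried for the pseudocount, filter, scaling, variance trend, library weights, block, threshold (0.01) and bounds of the rule, and each library was left out. The 0 calls of mature replicate 1 against immature chondrocytes, and the 0 members meeting the rule there, were 0 in each setting run for them, where a threshold of 0.01 could give nothing else. The rule gave 96 genes, 49 with a bound of 8 on immature cartilage, and 96 to 183 with a library left out, the highest without mature replicate 3 (162 without replicate 2). The number of members called for mature replicate 1 against osteoblasts changed with the setting, and so did the number over all tested genes. That contrast rests on 1 library, so these changes are not read as a result about the members. Members called for immature chondrocytes against osteoblasts were 1, 3 with the smaller pseudocount, and 0 without trend or at 0.01. They were 2 with weights and 0 to 13 with a library left out. Over the 9080 tested genes that contrast called 531 higher and 700 lower with the smaller pseudocount, and 450 and 673 without trend. It called 149 and 425 at 0.01, 449 and 714 with weights, and 649 and 747 without mature replicate 1. For all mature against immature libraries the members called were 0, 75 with weights, and 0 to 70 with a library left out. Over all tested genes 240 were higher and 228 lower with weights. Without mature replicate 1, the setting that gave the 70, 152 were higher and 116 lower. For mature libraries against osteoblasts the members called were 45, 15 at 0.01, and 13 to 75 with a library left out. Over all tested genes 142 were higher and 380 lower at 0.01. There were 226 and 462 without mature replicate 2, and 374 and 571 without mature replicate 1. Both contrasts of all mature libraries chose the genes, so nothing is read from these counts. The log2 difference of ENSXETG00000024840 in mature replicate 1 from immature chondrocytes, 0.05, was -0.07 with weights and -0.04 to 0.23 with a library left out. Each pair of groups shares 1 title number, and deviations from the group mean of libraries sharing one correlated at 0.32, 0.10 and -0.10 across genes. Libraries of unlike numbers were not correlated for comparison, so these values can neither show nor exclude a pairing. With the number as a random replicate block, 2 members were called for immature chondrocytes against osteoblasts. There were 0 for mature against immature and 54 for mature against osteoblasts. For these contrasts 625, 0 and 489 of the 9080 tested genes were higher, and 771, 0 and 715 lower. The cause of these changes was not tested.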
